A study of Mus musculus with 46 samples.

Results

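The genes described here are 10 components of TGF-beta signalling, followed in microglia, the macrophages that live in the brain. They are the ligand Tgfb1, its activation partner Nrros, the receptors Tgfbr1 and Tgfbr2, the signal carriers Smad2, Smad3 and Smad4, and the feedback inhibitors Smad7, Ski and Skil. They were taken by symbol from a list of pathway components, drawn up with earlier results of these data known. All 10 were among the 20999 genes of the count table, and all 10 passed the filter that left 12230 genes for testing.

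All mice were male C57BL/6, and microglia were sorted by CD11b, CD45 and CD44. RNA was sequenced in 5 groups of 2 libraries, and the labels describe the 2 as independent biological replicates. Adult cells came from wild-type mice of 90 days, which carry no reporter. Cells of postnatal day 8 (PND8) came from 8-day-old mice with the Ki67-rfp reporter and were sorted into Ki67-negative and Ki67-positive fractions. Ki67 is a protein of cycling cells. Repopulation cells came from Ki67-rfp mice of 75 days, given PLX5622, a CSF1R inhibitor that depletes microglia, from day 55 for 17 days, then left for 3 days to recover, and sorted in the same way. H3K27ac, an acetylation of histone H3 found at active regulatory elements, was mapped in 12 libraries from wild-type mice whose cells were fixed and sorted with a Ki67 antibody. The 6 groups of 2 were adult (60 and 65 days), PND8 Ki67-negative and Ki67-positive (8 days), cuprizone Ki67-negative and Ki67-positive (90 days, 4 weeks of the demyelinating agent cuprizone), and repopulation Ki67-positive (90 days, PLX5622 from day 70 for 17 days and 3 days of recovery). Another 8 peak lists covered H3K4me3, a promoter mark, in adult wild-type mice of 75 days (2 lists), the RNA polymerase II subunit Rpb2 in wild-type adults of 60 and 65 days and PND8 Ki67-positive cells (3 lists), and open chromatin by ATAC-seq (3 lists). The ATAC-seq groups were adult (80 days), PND8 Ki67-positive (8 days) and repopulation Ki67-positive (75 days, PLX5622 from day 55 for 17 days and 3 days of recovery), and for the latter 2 the titles name Ki67-rfp mice whereas the genotype field says wild type.

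TGF-beta1 is secreted in a latent form, and microglia and other myeloid cells hold that form on their surface through NRROS (LRRC33), from which integrins release the active ligand. The ligand binds TGFBR2, which recruits and activates TGFBR1, and TGFBR1 then phosphorylates SMAD2 and SMAD3, which enter the nucleus with SMAD4. SMAD7 blocks the receptors, SKI and SKIL (SnoN) repress the Smad complex on DNA, and Smad7 and Skil are themselves induced by the pathway. In the brain the pathway is known for maintaining the mature, resting identity of microglia.

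Total counts per RNA library lay between 6865903 and 10287876. Mki67, the transcript of Ki67, stood at 10.998 to 13.4 counts-per-million (CPM) in adult libraries, 242 to 463 in the Ki67-negative and 919.6 to 1107.5 in the Ki67-positive libraries. All 10 microglial markers were detected in every RNA library, with a summed level of 6413 to 8678 CPM. The 8 markers of border macrophages summed to 609.9 to 859.6 CPM at PND8, of which Mrc1 made up 519.7 to 834, against 65.1 to 80.4 in adult and 26.2 to 43.0 in repopulation libraries, where Lyve1 and Cd209f were at 0. The 9 monocyte and neutrophil markers summed to 229 and 70.0 CPM in the adult libraries, 7.71 to 11.7 at PND8 and 15.8 to 18.5 in repopulation. The 6 erythroid markers summed to 23.3 to 77.0 CPM at PND8, 0.463 to 7.45 in adult and 0.416 to 1.37 in repopulation. The 6 astrocyte markers summed to 239.5 and 248 CPM in adult and 406 to 559 in repopulation libraries, and at PND8 to 96.3 and 60.7 in replicate 1 and 429 and 376 in replicate 2 of the Ki67-negative and Ki67-positive fractions. Slc1a3 made up most of that sum, with 38.7 to 421 CPM at PND8. Endothelial markers, 8 in all, summed to 84.28 and 86.87 CPM in PND8 Ki67-negative and 51.9 and 51.2 in PND8 Ki67-positive libraries. In repopulation they summed to 72.03 and 65.2 CPM in Ki67-negative and 46.7 and 45.9 in Ki67-positive libraries. That sum was lower in Ki67-positive cells in both contexts, so it runs along the Ki67 comparisons below. At PND8 the border macrophage markers do so too. The 7 tested had a median log2 fold change of -1.24 in Ki67-positive against Ki67-negative cells, with 1 called lower and 0 higher (edgeR). Their 8-marker sum, mostly Mrc1, was instead higher in Ki67-positive libraries there. In repopulation the median was 0, with 0 called. Marker differences also run along every comparison with PND8 or adult cells below, and their part in the results was not tested. In bulk samples fewer cells of a type and less RNA per cell cannot be told apart. The adult RNA libraries also carry a numeric header code of their own, so code, genotype and age cannot be told apart from the adult group.

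The start sites of 6 members were matched to the RefSeq promoter table (GRCm38.p6), and none was matched for Skil. Promoters of Smad2, Smad4 and Smad7 were left out of the search and are not reported here. The motif counts below do not cover these genes. The 250 bases before the start are printed for the 4 matched genes whose RNA was lower at PND8 than in adult cells, since all 4 lay beside an H3K27ac peak in every list. Capitals mark GGCGCC, a GC-rich sequence that Smad proteins can bind, searched on both strands. The promoters of Tgfbr1 (chr4:47352972-47353221, plus strand), Tgfbr2 (chr9:116175364-116175613, minus strand), Smad3 (chr9:63757995-63758244, minus strand) and Ski (chr4:155222536-155222785, minus strand) read, 5′ to 3′ in the direction of transcription:
Tgfbr1: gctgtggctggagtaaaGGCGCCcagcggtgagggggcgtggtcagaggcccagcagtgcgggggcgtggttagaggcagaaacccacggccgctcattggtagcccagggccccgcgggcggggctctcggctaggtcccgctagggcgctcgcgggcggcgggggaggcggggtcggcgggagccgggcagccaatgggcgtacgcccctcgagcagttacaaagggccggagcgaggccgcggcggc
Tgfbr2: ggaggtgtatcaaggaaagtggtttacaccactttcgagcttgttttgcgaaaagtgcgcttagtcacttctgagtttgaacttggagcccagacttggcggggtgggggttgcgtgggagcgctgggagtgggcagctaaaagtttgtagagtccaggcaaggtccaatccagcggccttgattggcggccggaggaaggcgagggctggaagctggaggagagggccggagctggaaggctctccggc
Smad3: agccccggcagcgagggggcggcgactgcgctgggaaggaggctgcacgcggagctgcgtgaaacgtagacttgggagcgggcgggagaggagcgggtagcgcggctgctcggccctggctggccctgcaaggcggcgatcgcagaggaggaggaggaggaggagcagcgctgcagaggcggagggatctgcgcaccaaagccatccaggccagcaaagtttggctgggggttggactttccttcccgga
Ski: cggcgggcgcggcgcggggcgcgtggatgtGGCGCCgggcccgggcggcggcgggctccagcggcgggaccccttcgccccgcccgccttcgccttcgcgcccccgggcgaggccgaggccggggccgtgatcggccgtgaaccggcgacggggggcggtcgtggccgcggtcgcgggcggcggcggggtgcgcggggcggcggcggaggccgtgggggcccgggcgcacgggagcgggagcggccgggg
GGCGCC occurred in 2 of the 6 matched promoters, at bases -233 to -228 before the Tgfbr1 start and -220 to -215 before the Ski start, and in 9.59% of all 32851 promoters. The palindromic Smad motif GTCTAGAC, the Smad motif CAGACA and the PU.1-like motif GAGGAAGT, each searched on both strands, occurred in none of the 6 and in 0.167%, 17.1% and 2.44% of all promoters. G and C made up 87.6% of the Ski window, 75.2% of that of Tgfb1, 74.8% of that of Tgfbr1, 69.2% of that of Smad3 and 58.4% of those of Tgfbr2 and Nrros. Across all promoters the median was 52.4% and the quartiles were 45.2% and 61.2%, so 4 of the 6 members lay above the upper quartile.

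The receptors, Smad3 and the feedback inhibitors were lower at PND8 than in adult microglia. Ligand, activation partner, Smad2 and Smad4 did not pass the test there in the main fit (all groups, low counts filtered, no replicate block). In PND8 Ki67-positive cells 6 of the 10 genes were lower than in adult and 0 higher by edgeR at an adjusted p under 0.05, where 24.3% of all tested genes were lower. The 6 were Smad7, Skil, Smad3, Tgfbr1, Tgfbr2 and Ski. In PND8 Ki67-negative cells 6 were also lower and 0 higher (Skil, Smad7, Smad3, Tgfbr1, Ski and Tgfbr2), where 21.4% of all genes were lower. In repopulation Smad2 was among the lower genes, and Tgfbr1 and Skil did not pass. Repopulation Ki67-positive cells had 5 genes lower than adult and 0 higher (Smad7, Smad2, Smad3, Tgfbr2 and Ski), where 21% of all genes were lower. Repopulation Ki67-negative cells also had 5 lower and 0 higher (Smad2, Smad3, Smad7, Ski and Tgfbr2), where 17.6% were lower. The 4 comparisons share the 2 adult libraries, so their results are given side by side only. The median log2 fold change of the 10 genes was -0.47 and -0.50 in the PND8 Ki67-positive and Ki67-negative comparisons and -0.28 and -0.23 in those of repopulation, beside 0.00, 0.03, -0.01 and -0.01 for all genes tested.

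**Figure D1:**
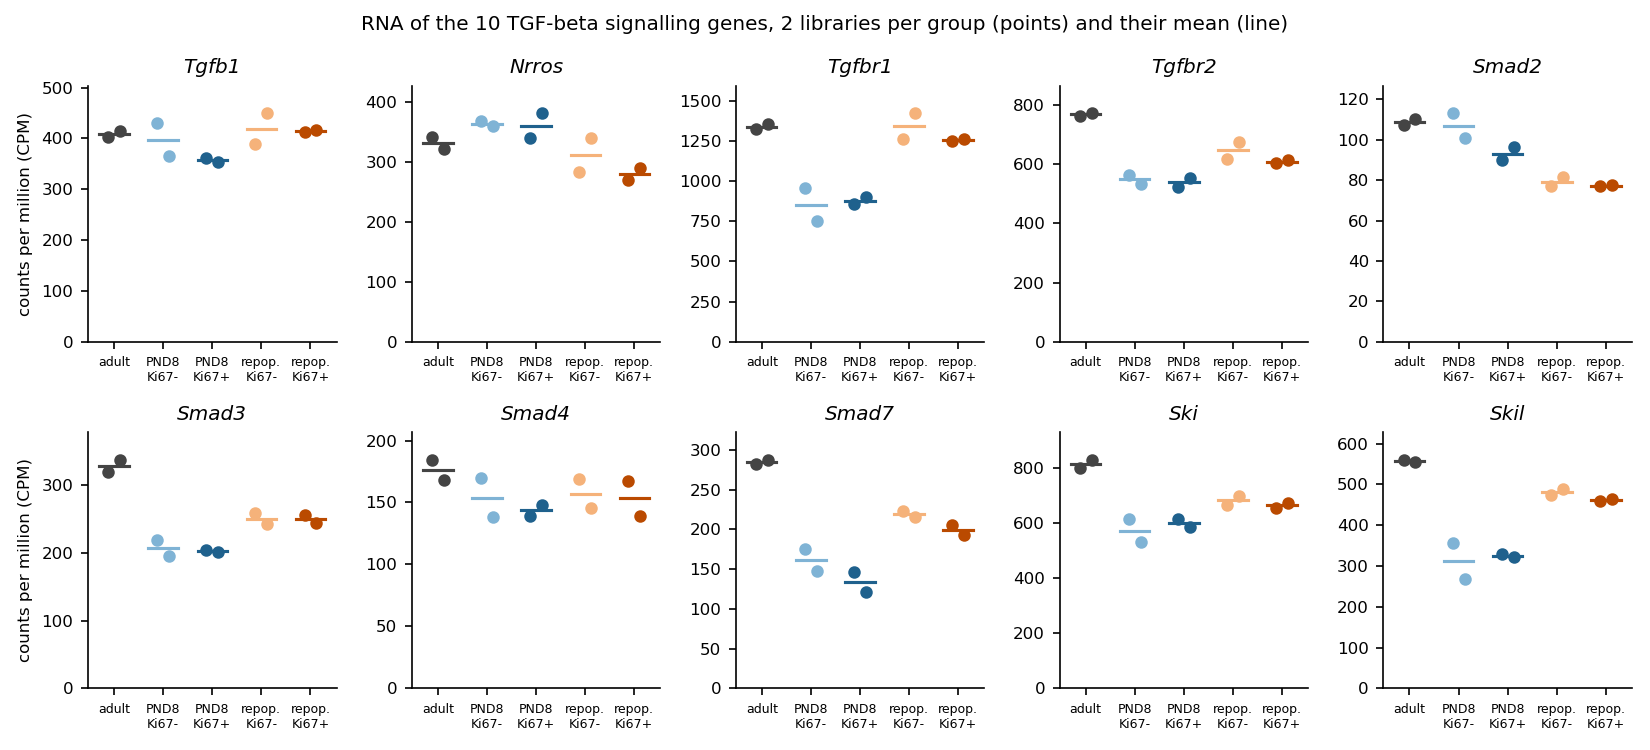
Counts-per-million (vertical axes, from 0) of the 10 genes in 5 RNA groups, with a point per library and a line at the mean of the 2. Tgfbr1 lies at 1322.5 and 1351.1 CPM in adult cells and between 749 and 956 in the 4 PND8 libraries, whereas Tgfb1 lies between 354 and 449 throughout.

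Tgfb1 (chr7:25687002-25705077, mm10) encodes the ligand. It stood at 403 and 415 CPM in adult cells, 430.1 and 365 in PND8 Ki67-negative, 361 and 354 in PND8 Ki67-positive, 389 and 449 in repopulation Ki67-negative, and 412 and 416 in repopulation Ki67-positive cells. Both PND8 Ki67-positive libraries were below both adult libraries, and the other groups overlapped adult. Its log2 fold change against adult was -0.19 ± 0.10 (SE, adjusted p = 0.11, edgeR) in PND8 Ki67-positive cells and between -0.04 and 0.04 in the other 3 groups, and Tgfb1 passed the threshold in no RNA comparison. With only the 2 compared groups in the fit, which changes the estimate of the spread, the PND8 Ki67-positive difference passed (adjusted p = 0.00634).

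Nrros (chr16:32142786-32165594) encodes the surface partner that holds latent TGF-beta1. Its CPM was 342 and 323 in adult, 368 and 360.0 in PND8 Ki67-negative, 340.5 and 381 in PND8 Ki67-positive, 284 and 340.7 in repopulation Ki67-negative, and 271 and 291 in repopulation Ki67-positive cells. The repopulation Ki67-positive libraries lay below both adult libraries, and the PND8 Ki67-negative libraries lay above both. Neither difference passed (log2 fold change -0.24 ± 0.10, adjusted p = 0.0577, and 0.13 ± 0.10, adjusted p = 0.283, edgeR). The first passed in 6 of its 12 alternatives, with adjusted p-values from 0.00631 (only the compared groups in the fit) to 0.0377.

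Tgfbr1 (chr4:47353222-47414924) encodes the signalling receptor kinase. It was counted at 1322.5 and 1351.1 CPM in adult, 956 and 749 in PND8 Ki67-negative, 856 and 899.98 in PND8 Ki67-positive, 1258 and 1420.0 in repopulation Ki67-negative, and 1246 and 1261 in repopulation Ki67-positive cells. All 4 PND8 libraries lay below all 6 others. It fell by 0.65 ± 0.11 on the log2 scale in PND8 Ki67-negative cells against adult (adjusted p = 0.00034, edgeR) and by 0.61 ± 0.11 in PND8 Ki67-positive cells (adjusted p = 0.000497). In repopulation the log2 fold change against adult was 0.00 ± 0.11 in Ki67-negative and -0.09 ± 0.11 in Ki67-positive cells, with adjusted p-values of 0.99 and 0.519.

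Tgfbr2 (chr9:116087695-116175363) encodes the receptor that binds the ligand. Its CPM was 765 and 772 in adult, 563 and 534 in PND8 Ki67-negative, 522 and 555 in PND8 Ki67-positive, 619 and 676 in repopulation Ki67-negative, and 604 and 613 in repopulation Ki67-positive cells. The 3 contexts separated in every library, with adult highest, repopulation next and PND8 lowest. Against adult, Tgfbr2 fell by 0.49 ± 0.08 in PND8 Ki67-negative, 0.51 ± 0.08 in PND8 Ki67-positive, 0.25 ± 0.08 in repopulation Ki67-negative and 0.34 ± 0.08 in repopulation Ki67-positive cells on the log2 scale. The adjusted p-values, in that order, were 0.000325, 0.000178, 0.0279 and 0.00438 (edgeR).

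The receptor-regulated Smads differed from each other. Smad3 (chr9:63646767-63757994) stood at 319 and 337 CPM in adult, 219.7 and 195 in PND8 Ki67-negative, 204 and 201 in PND8 Ki67-positive, 259 and 243 in repopulation Ki67-negative, and 256 and 244 in repopulation Ki67-positive cells. Every PND8 library lay below every repopulation library, and every repopulation library below both adult libraries. Smad3 fell by 0.66 ± 0.08 and 0.70 ± 0.08 in PND8 Ki67-negative and Ki67-positive cells (adjusted p = 3.16e-05 and 1.63e-05), and by 0.39 ± 0.08 in both repopulation groups (adjusted p = 0.00258 and 0.00186). Smad2, whose protein is activated by the same receptor, stood at 107 and 110.0 CPM in adult, 113 and 101 in PND8 Ki67-negative, 89.9 and 96.3 in PND8 Ki67-positive, 77.0 and 81.4 in repopulation Ki67-negative, and 76.9 and 77.7 in repopulation Ki67-positive cells. Here the repopulation libraries, not those of PND8, were the lowest. Smad2 fell by 0.46 ± 0.09 in repopulation Ki67-negative and 0.49 ± 0.09 in Ki67-positive cells (adjusted p = 0.00189 and 0.000907). At PND8 its log2 fold change was -0.02 ± 0.09 in Ki67-negative and -0.22 ± 0.09 in Ki67-positive cells (adjusted p = 0.858 and 0.0621). The Ki67-positive Smad2 difference passed in edgeR with only the compared groups in the fit (adjusted p = 0.0326) and with the replicate block (adjusted p = 0.044). Smad4, the shared partner of both, ranged from 138 to 184 CPM, with adult libraries at 184 and 168. In the main edgeR fit (all groups, low counts filtered, no replicate block) it passed in no comparison. Its lowest adjusted p against adult there was 0.0531, for a log2 fold change of -0.30 ± 0.12 in PND8 Ki67-positive cells. That difference passed in edgeR with no filter on low counts (adjusted p = 0.012) and with the replicate block (adjusted p = 0.0133). It also passed with only the compared groups in the fit (adjusted p = 0.00384).

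Among the 10 genes, the feedback inhibitors Smad7 and Skil had the largest differences between PND8 and adult cells. Smad7, the inhibitor of the receptors, stood at 282 and 287 CPM in adult, 175 and 147 in PND8 Ki67-negative, 146 and 121 in PND8 Ki67-positive, 223 and 216 in repopulation Ki67-negative, and 206 and 193 in repopulation Ki67-positive cells. PND8 was lowest, repopulation next and adult highest, with no overlap between the 3. Smad7 fell by 1.09 ± 0.10 in PND8 Ki67-positive cells (2.13-fold, adjusted p = 1.95e-06), by 0.82 ± 0.10 in PND8 Ki67-negative cells (adjusted p = 2.89e-05), and by 0.51 ± 0.10 and 0.38 ± 0.10 in repopulation Ki67-positive and Ki67-negative cells (adjusted p = 0.00124 and 0.0106). Skil (chr3:31095058-31122923), a repressor of Smad complexes, stood at 559.8 and 554 CPM in adult, 355 and 269 in PND8 Ki67-negative, 329 and 321 in PND8 Ki67-positive, 474 and 488 in repopulation Ki67-negative, and 459 and 464 in repopulation Ki67-positive cells. Again no PND8 library reached any other. Skil fell by 0.84 ± 0.11 and 0.78 ± 0.11 in PND8 Ki67-negative and Ki67-positive cells (adjusted p = 3.49e-05 and 5.7e-05). In repopulation it did not pass, with log2 fold changes of -0.21 ± 0.11 and -0.27 ± 0.11 in Ki67-negative and Ki67-positive cells (adjusted p = 0.134 and 0.0532). The Ki67-positive difference passed in 7 of 12 alternatives, with adjusted p-values from 0.000832 to 0.0457 (DESeq2), and the Ki67-negative difference in 2 of 12 (0.0189 and 0.0337). Ski (chr4:155154075-155222535), the related repressor, ranged from 531 to 617 CPM at PND8 and from 654 to 700.3 in repopulation, against 799 and 829.8 in adult cells. It fell by 0.51 ± 0.09 and 0.44 ± 0.09 in PND8 Ki67-negative and Ki67-positive cells (adjusted p = 0.00042 and 0.00111) and by 0.26 ± 0.09 and 0.29 ± 0.09 in those of repopulation (adjusted p = 0.0342 and 0.0153).

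Each of the 12 calls at PND8 passed in all 12 alternatives tried for it, among them those without each adult library, which differ in monocyte and neutrophil markers. The repopulation calls depended more on single libraries. In repopulation Ki67-negative cells the count of lower genes went from 5 to 2 without either adult library and to 3 without either repopulation library, with Smad2 and Smad3 the genes that passed each time. The Ski call in repopulation Ki67-positive cells passed in 8 of its 12 alternatives.

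**Figure D2:**
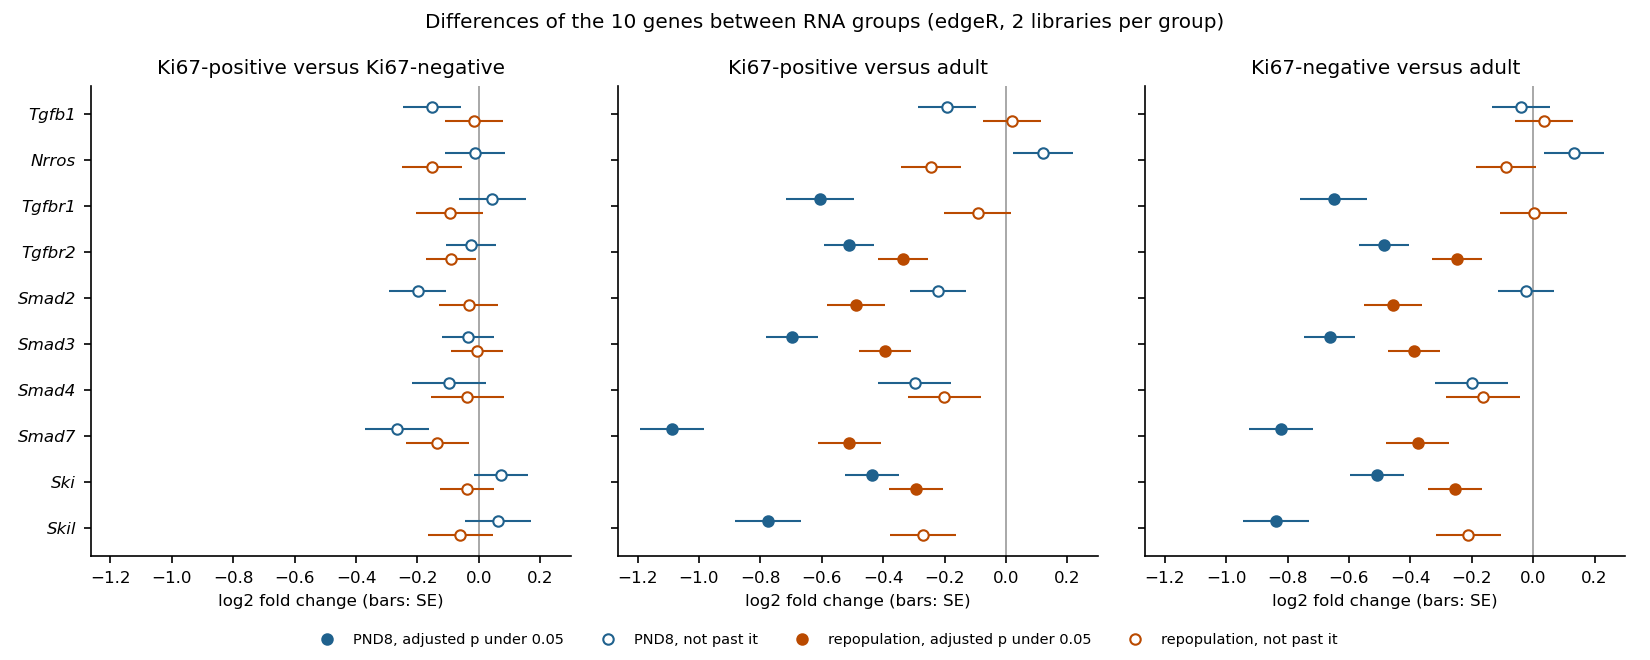
Fitted log2 fold changes (horizontal axes) with their SE as bars for the 10 genes, Ki67-positive against Ki67-negative cells at left and each fraction against adult at centre and right, with filled points where the edgeR adjusted p is under 0.05. No point is filled at left, and Smad7 reaches -1.09 in PND8 Ki67-positive cells at centre.

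No member passed the test between Ki67 fractions. Between Ki67-positive and Ki67-negative cells edgeR called 0 of the 10 at PND8 and 0 in repopulation, where 5.9% and 2.74% of all genes were called. DESeq2 also called 0 in each. At an unadjusted p under 0.05 there was 1 at PND8, Smad7 (log2 fold change -0.27 ± 0.10, adjusted p = 0.166), and 0 in repopulation. Smad7 was lower in both Ki67-positive libraries than in both Ki67-negative libraries at PND8, and by -0.26 and -0.28 within each pair of libraries with a common header code. With that code as a term in the fit the Smad7 difference passed (adjusted p = 0.0106), and without PND8 Ki67-negative replicate 1 Skil passed as higher in Ki67-positive cells (0.28, adjusted p = 0.0337). In repopulation Smad7 differed by -0.14 ± 0.10 (adjusted p = 0.588), and within its code pairs by -0.11 and -0.16. The other 9 genes had fitted differences between -0.20 and 0.07 at PND8, and in repopulation all 10 lay between -0.15 and -0.01. A test of whether the Ki67 difference itself differed between PND8 and repopulation called 0 of the 10 (0 at an unadjusted p under 0.05, 0 by DESeq2), and 0% of all genes.

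Against PND8, repopulation cells of both fractions were higher for Tgfbr1, Smad3, Smad7 and Skil and lower for Smad2, and Tgfbr2 and Ski passed as higher in Ki67-negative cells. The adult libraries enter these comparisons through the estimate of the spread. In Ki67-negative cells 6 of the 10 were higher (Tgfbr1 by 0.65 ± 0.11, Skil by 0.63 ± 0.11, Smad7 by 0.45 ± 0.10, Smad3 by 0.27 ± 0.08, Ski by 0.25 ± 0.09 and Tgfbr2 by 0.24 ± 0.08 on the log2 scale), where 18% of all genes were higher. Smad2 was the 1 lower gene, by -0.43 ± 0.09, where 18.6% of all genes were lower. In Ki67-positive cells, which are other libraries, 4 were higher (Smad7 by 0.58 ± 0.10, Tgfbr1 by 0.51 ± 0.11, Skil by 0.50 ± 0.11 and Smad3 by 0.30 ± 0.08), where 16.7% of all genes were higher. Nrros (-0.36 ± 0.10, adjusted p = 0.0124) and Smad2 (-0.27 ± 0.09, adjusted p = 0.0458) were lower there, where 14.2% of all genes were. That Smad2 call passed in 5 of 13 alternatives and was lost with DESeq2 (adjusted p = 0.0837), with no filter (0.091) and on both TPM scales, and the Smad3 call passed in 8 of 13. The median over the 10 genes was 0.25 and 0.19 in Ki67-negative and Ki67-positive cells, beside -0.04 and 0.00 for all genes.

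The calls of Tgfbr1, Skil and Smad7 held in all 13 alternatives of both comparisons. With library sizes alone as the scaling, which put the median of all genes at -0.13, the Ki67-negative count went from 6 higher and 1 lower to 3 higher and 2 lower. With only the groups compared in the fit it was 3 higher and 1 lower, without Ski (adjusted p = 0.183), Tgfbr2 (0.189) and Smad3 (0.0937), whereas the Ki67-positive count was 6 higher and 2 lower. The Ki67-positive count fell to 3 higher and 0 lower without PND8 Ki67-positive replicate 2 or without repopulation Ki67-positive replicate 1. Repopulation replicate 1 and PND8 replicate 2 share a header code, and within it Tgfbr1 was higher in repopulation by 0.75 in Ki67-negative and 0.47 in Ki67-positive cells, Skil by 0.82 and 0.51, and Smad7 by 0.60 and 0.76, while Smad2 differed by -0.39 and -0.32.

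Levels were compared between genes as CPM per kilobase of the counted transcript. In adult cells Tgfbr1 was the highest of the 10 at 233 (mean of 2 libraries), followed by Tgfb1 at 189, Tgfbr2 at 161, Ski at 149, Nrros at 89.5, Skil at 78.9, Smad3 at 64.6, Smad7 at 64.2, Smad4 at 23.2 and Smad2 at 12.4. Only Smad3 and Smad7 overlapped among neighbours in that order. At PND8 Tgfb1 led instead, at 184 in Ki67-negative and 165 in Ki67-positive cells, above Tgfbr1 at 149 and 153, with no overlap within either group. In both repopulation groups Tgfbr1 was again first, at 233 and 218, above Tgfb1 at 193 and 191. Among neighbours at PND8, Tgfbr2 and Ski overlapped in both fractions. The deposited transcripts-per-million (TPM) used another transcript for Nrros, Tgfbr2, Ski and Skil, and placed Nrros above Tgfbr2 and Ski at PND8. By TPM the ligand and both receptors stood between the 98.2 and 99.8 percentiles of all genes in every library, Smad4 between 73.8 and 80.4, and Smad2 between 62.1 and 68.3.

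The balance within protein pairs moved with context. Smad3 exceeded Smad2 per kilobase by 5.13 and 5.28 times in adult libraries, 3.33 to 3.9 times in the 4 PND8 libraries and 5.14 to 5.78 times in the 4 repopulation libraries. Skil stood at 0.542 and 0.516 of Ski in adult libraries, 0.391 to 0.447 at PND8 and 0.532 to 0.552 in repopulation. Tgfbr1 exceeded Tgfbr2 by 1.44 and 1.46 times in adult, 1.17 to 1.41 times at PND8 and 1.69 to 1.75 times in repopulation libraries. PND8 was the lowest context for all 3 ratios in every library, as a description of the same counts.

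All 10 genes had an H3K27ac peak within 1 kb of the start site in all 12 lists, which 38.1% of the 20999 genes had. They also had an H3K4me3 peak there in both adult lists and an ATAC-seq peak in all 3 lists (adult, PND8 Ki67-positive and repopulation Ki67-positive). Of all genes, 60.7% and 60.0% had an H3K4me3 peak there in the single lists. For ATAC-seq the shares were 56.0%, 58.4% and 60.8%, in the order given. Rpb2 peaks were present in 3 of 3 lists for 8 genes and in 2 of 3 for Tgfb1 and Ski, which had none in adult replicate 1. Of all genes, 36.0% and 30.6% had an Rpb2 peak there in adult replicates 1 and 2, and 48.4% in the PND8 list. When at least 500 bases of a peak had to lie within that distance, 9 genes kept an H3K27ac peak in all 12 lists and Ski had 1 in 6 of 12. Ranked by the authors' signal within each list, the strongest start-site peak of Tgfbr2 lay between the 96.4 and 98.7 percentiles, that of Tgfb1 between 95.5 and 98.8, and that of Skil between 94.2 and 99.1. Those of Smad2 and Smad4 lay between 24.8 and 74.5 and between 14.9 and 60.7. Smad2 and Smad4 were also the 2 lowest of the 10 genes by RNA level per kilobase.

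The H3K27ac-covered length within 20 kb each side of the start site, a window of 40 kb, was set beside the total length called in each library. Lists held 19572 to 30539 peaks over 29.96 to 52.14 Mb, and the shortest was adult replicate 1. With 2 lists against 2 the smallest two-sided exact permutation p is 0.333, so counts of groups that do not overlap are given without a test, beside the same share over all genes.

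Skil carried 6.55 and 7.24 kb of H3K27ac in adult, 4.05 and 5.62 in PND8 Ki67-negative, 5.06 and 5.65 in PND8 Ki67-positive, 6.71 and 6.83 in cuprizone Ki67-negative, 5.37 and 7.15 in cuprizone Ki67-positive, and 8.02 and 7.89 in repopulation lists. The 4 PND8 lists were below both adult lists and both repopulation lists. Tgfbr2 carried 10.09 and 10.31 kb in adult, 9.77 and 8.65 in PND8 Ki67-negative, 8.20 and 8.13 in PND8 Ki67-positive, 11.41 and 11.84 in cuprizone Ki67-negative, 10.90 and 10.30 in cuprizone Ki67-positive, and 8.75 and 12.01 in repopulation lists. Here too PND8 was below adult in every list, whereas the repopulation lists fell on either side of it. For Smad3 the values were 6.54 and 6.74 kb in adult, 5.38 and 5.45 in PND8 Ki67-negative, 5.66 and 7.39 in PND8 Ki67-positive, 7.15 and 7.18 in cuprizone Ki67-negative, 5.88 and 6.04 in cuprizone Ki67-positive, and 7.56 and 8.78 in repopulation lists. For Tgfbr1 they were 6.48 and 7.92 kb in adult, 6.33 and 5.78 in PND8 Ki67-negative, 6.42 and 6.69 in PND8 Ki67-positive, 6.57 and 7.23 in cuprizone Ki67-negative, 6.63 and 7.18 in cuprizone Ki67-positive, and 7.33 and 6.92 in repopulation lists. Tgfb1 was covered over 7.40 to 9.35 kb, with adult lists the lowest. Divided by the library total, its lists overlapped adult in every comparison. The Tgfb1 window also holds the start sites of B9d2 and Tmem91, at -6222 and -11836 bases. That of Nrros holds the start of Bex6, at -14206 bases. Cover near those starts is counted too and was not assigned to either gene. Ski was covered over 11.04 to 13.62 kb, Nrros over 7.07 to 10.02, Smad7 over 4.96 to 10.04, Smad2 over 1.08 to 2.99 and Smad4 over 0.81 to 2.93 kb.

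**Figure D3:**
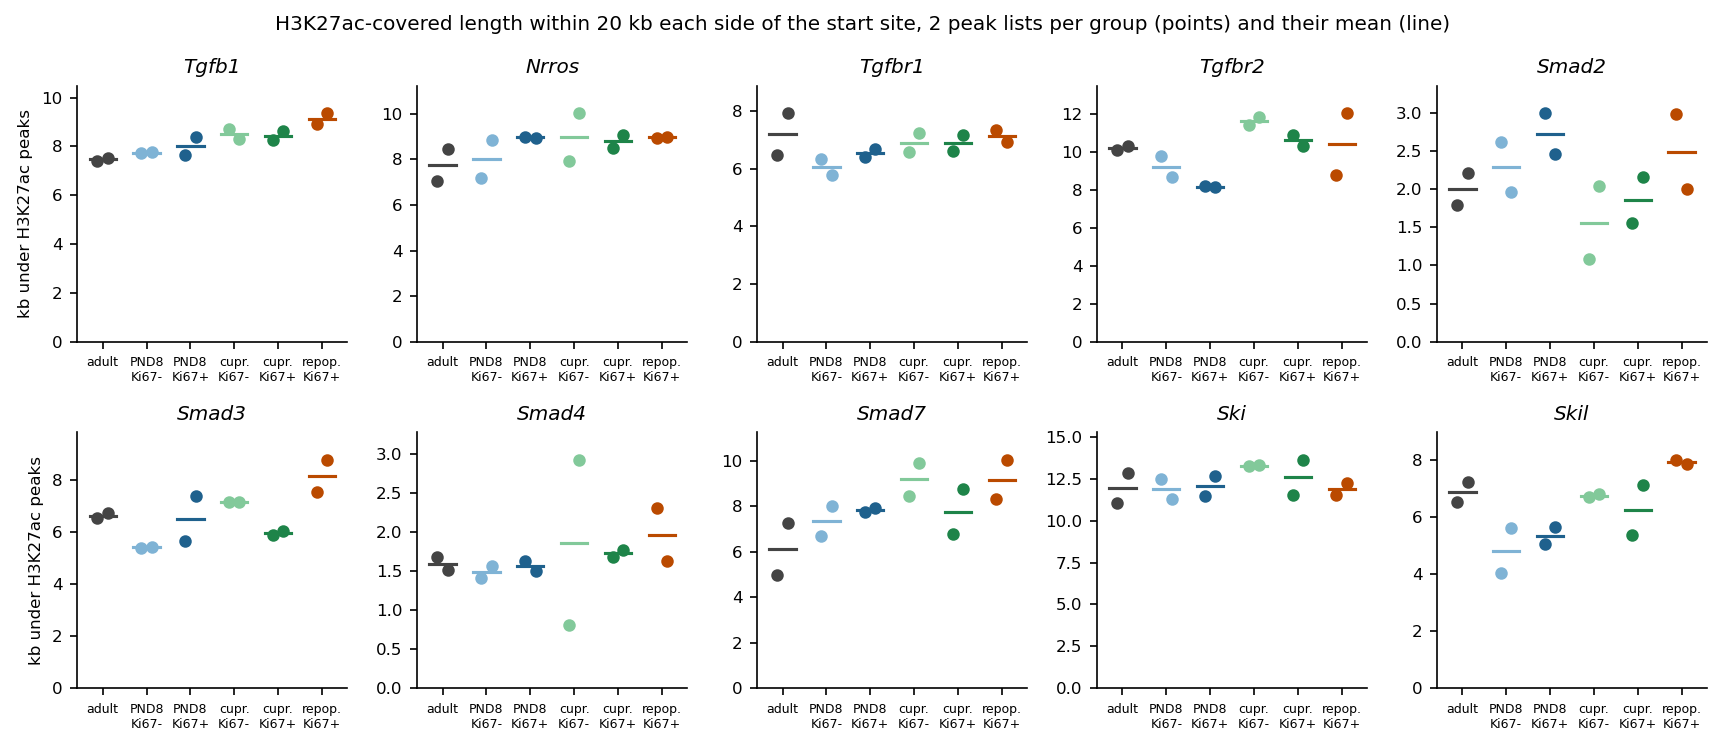
Kilobases under H3K27ac peaks (vertical axes, from 0) within 20 kb each side of each start site, with a point per peak list and a line at the mean of the 2 lists of a group. Both PND8 groups lie below adult for Skil and Tgfbr2, and the repopulation lists are the highest for Skil, at 8.02 and 7.89 kb.

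Counted over the 10 genes, PND8 Ki67-negative lists were below adult for 4 (Skil, Smad3, Tgfbr1 and Tgfbr2) and above for 1 (Tgfb1), where 3.65% of all genes were lower and 29.4% higher. PND8 Ki67-positive lists were below adult for 2 (Skil and Tgfbr2) and above for 4 (Nrros, Smad2, Smad7 and Tgfb1), where 2.51% were lower and 35.3% higher. With covered length divided by each library's total, Ki67-positive lists were below adult for 5 (Skil, Ski, Smad3, Tgfbr1 and Tgfbr2), where 17.9% of all genes were lower, and Ki67-negative lists for 7 (these, Nrros and Smad4), where 18.7% were, and no member was above. Repopulation Ki67-positive lists were above adult for 5 (Nrros, Skil, Smad3, Smad7 and Tgfb1) and below for 0, where 36.6% of all genes were higher and 1.92% lower. With lengths divided by the library total this turned to 0 above and 4 below (Nrros, Tgfbr1, Ski and Skil), where 15.4% of all genes were above and 17.2% below, so the direction of Nrros and Skil depends on that scaling. Cuprizone Ki67-positive lists were above adult for 3 (Tgfb1, Nrros and Smad4) and below for 1 (Smad3), where 25.8% of all genes were higher and 2.29% lower, and divided by the total 0 were above and 5 below, beside 11.8% and 18.2% of all genes. Cuprizone Ki67-negative lists were above adult for 5 (Tgfb1, Tgfbr2, Smad3, Smad7 and Ski) and below for 0, where 20.7% were higher and 1.65% lower, and divided by the total 1 was above and 4 below, beside 7.71% and 16.4% of all genes. These comparisons share the adult lists.

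Repopulation Ki67-positive lists were above PND8 Ki67-positive lists for 6 genes (Tgfb1, Tgfbr1, Tgfbr2, Smad3, Smad7 and Skil) and below for 0, where 16.9% of all genes were higher. Divided by the library total, Smad3 and Skil remained above, where 13.2% of all genes were. Between Ki67-positive and Ki67-negative lists of PND8, Nrros, Tgfbr1 and Smad3 were higher and Tgfbr2 lower, where 17.0% of all genes were higher and 5.51% lower, and in cuprizone 0 were higher and Tgfbr2 and Smad3 lower, where 8.55% and 5.94% were. Divided by the library total these came to Smad3 alone, higher, at PND8, where 14.5% of all genes were higher, and Smad7 alone, lower, in cuprizone, where 7.23% were lower.

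Peaks merged over the 12 lists gave 50 regions in the 10 windows, of which 26 were present in every list and 6 in 1 list only. The 4 regions of Tgfb1 and the 3 of Smad3 were present in all 12 lists. Of the 9 regions of Tgfbr1, 2 were in all lists, and that centred 3.70 kb after the start (chr4:47355973-47357881, mm10, inside the gene) was in both adult and both repopulation lists, in 1 of 4 cuprizone lists and in 0 of 4 PND8 lists. A Tgfbr2 region centred 3.00 kb before the start (chr9:116177599-116179124) was in both adult, both repopulation and 3 of 4 cuprizone lists and in 0 of 4 PND8 lists. These were the 2 regions present in both adult lists and absent from every PND8 list. A Skil region centred 4.31 kb after the start (chr3:31098630-31100104) was in both repopulation lists and in no other list. No region was present in all 4 PND8 lists and absent from both adult lists. A region missing from a list fell short of the authors' threshold there, and its signal is not given in these lists.

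**Figure D4:**
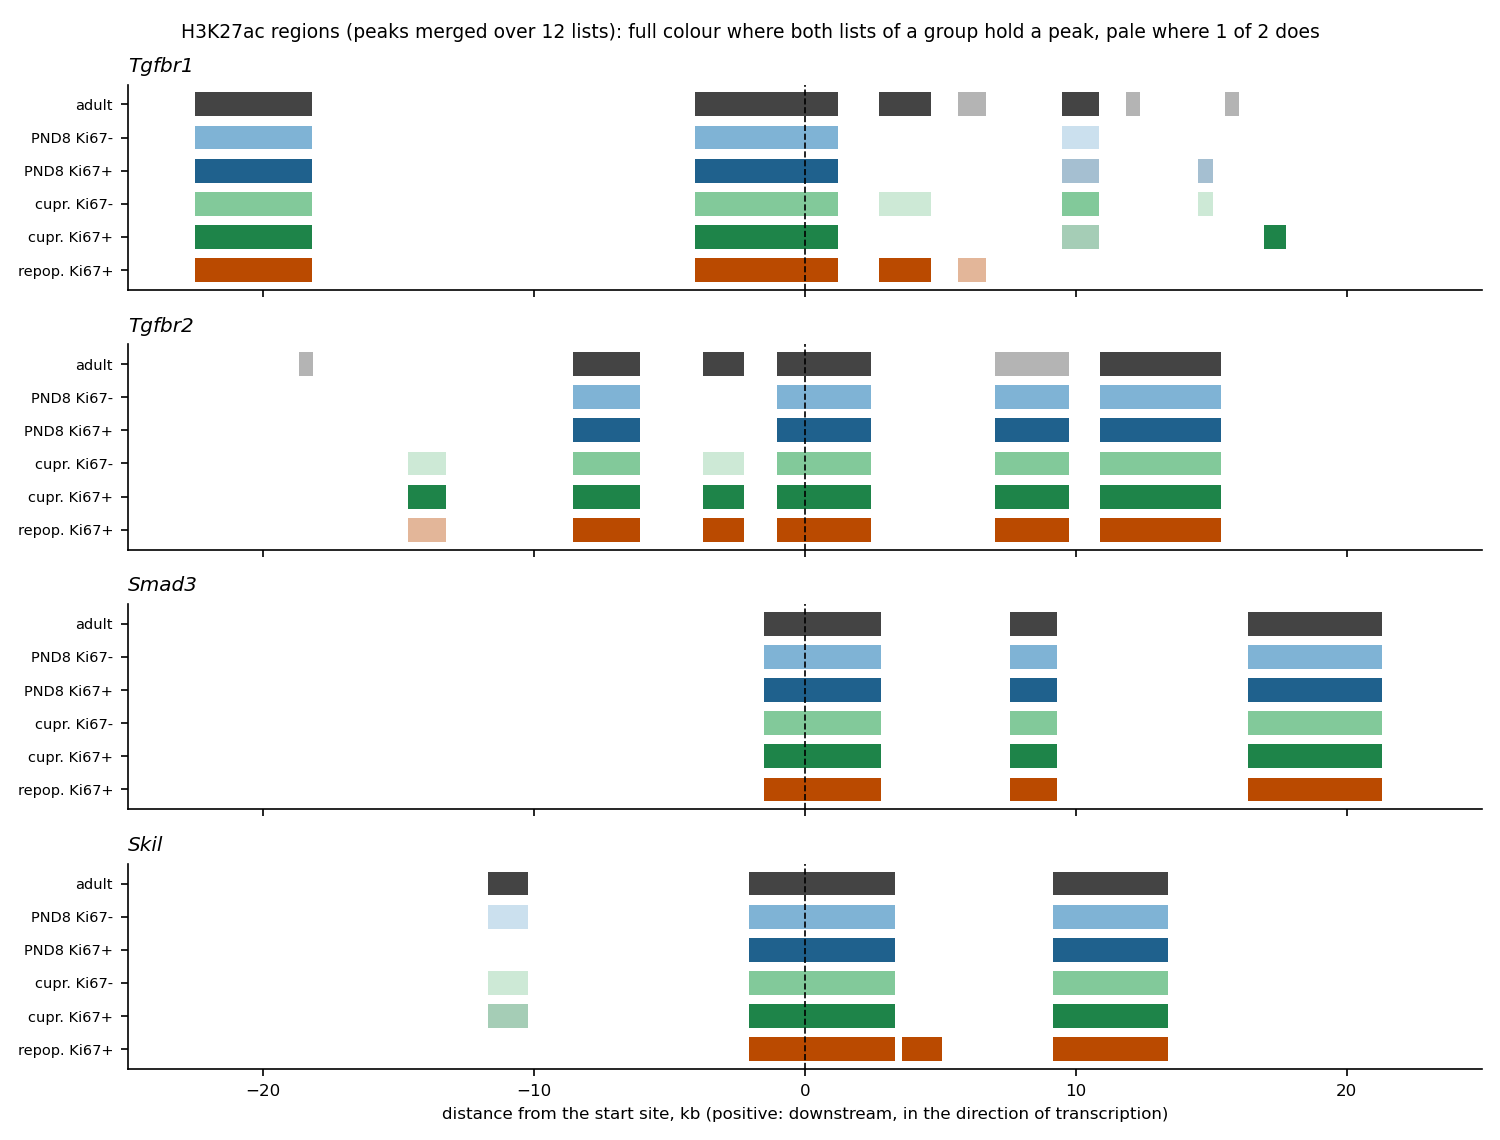
Merged H3K27ac regions of Tgfbr1, Tgfbr2, Smad3 and Skil by distance from the start site in kilobases (horizontal axis), a row per group, in full colour where both lists hold a peak and pale where 1 of 2 does. The regions at 3.70 kb of Tgfbr1 and just before the start of Tgfbr2 are empty in both PND8 rows, and the 3 Smad3 regions are full in every row.

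The other genes of the pathway were counted from fixed lists, against the same adult libraries and in the order PND8 Ki67-positive, PND8 Ki67-negative, repopulation Ki67-positive and repopulation Ki67-negative. Of 12 tested receptors and accessory receptors, 8, 7, 7 and 6 were lower than adult and 2, 2, 2 and 1 higher, with medians of -0.41, -0.42, -0.45 and -0.37. The shares of all genes that were higher were 25.1%, 25.4%, 23.9% and 21.5%, beside the shares lower given above. Acvr2b, an activin receptor, fell from 231 and 237 CPM in adult cells by 1.58, 1.13, 1.26 and 0.82 on the log2 scale. Eng (endoglin), an accessory receptor, fell by 1.21 ± 0.08 and 0.66 ± 0.08 in PND8 Ki67-positive and Ki67-negative cells, and Acvrl1 (ALK1) was higher by 1.03 ± 0.13 in repopulation Ki67-negative cells. Of 10 tested genes for ligands, latency and activation, 4, 4, 1 and 0 were lower and 2, 4, 4 and 4 higher. Itgav, the integrin subunit that helps release active TGF-beta, fell by 0.75 ± 0.12 and 0.88 ± 0.12 in PND8 Ki67-positive and Ki67-negative cells. Furin, the protease that cleaves the ligand precursor, rose by 0.79 ± 0.08 and 0.89 ± 0.08 in repopulation Ki67-positive and Ki67-negative cells. Fbn2 (fibrillin-2), an extracellular matrix protein that anchors latent complexes, had 0 counts in both adult libraries. It stood at 48.8 to 61.6 CPM in repopulation Ki67-positive and 39.1 to 50.3 in repopulation Ki67-negative cells, at least 151-fold and 122-fold higher with 3 counts per adult library as the floor.

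**Figure D5:**
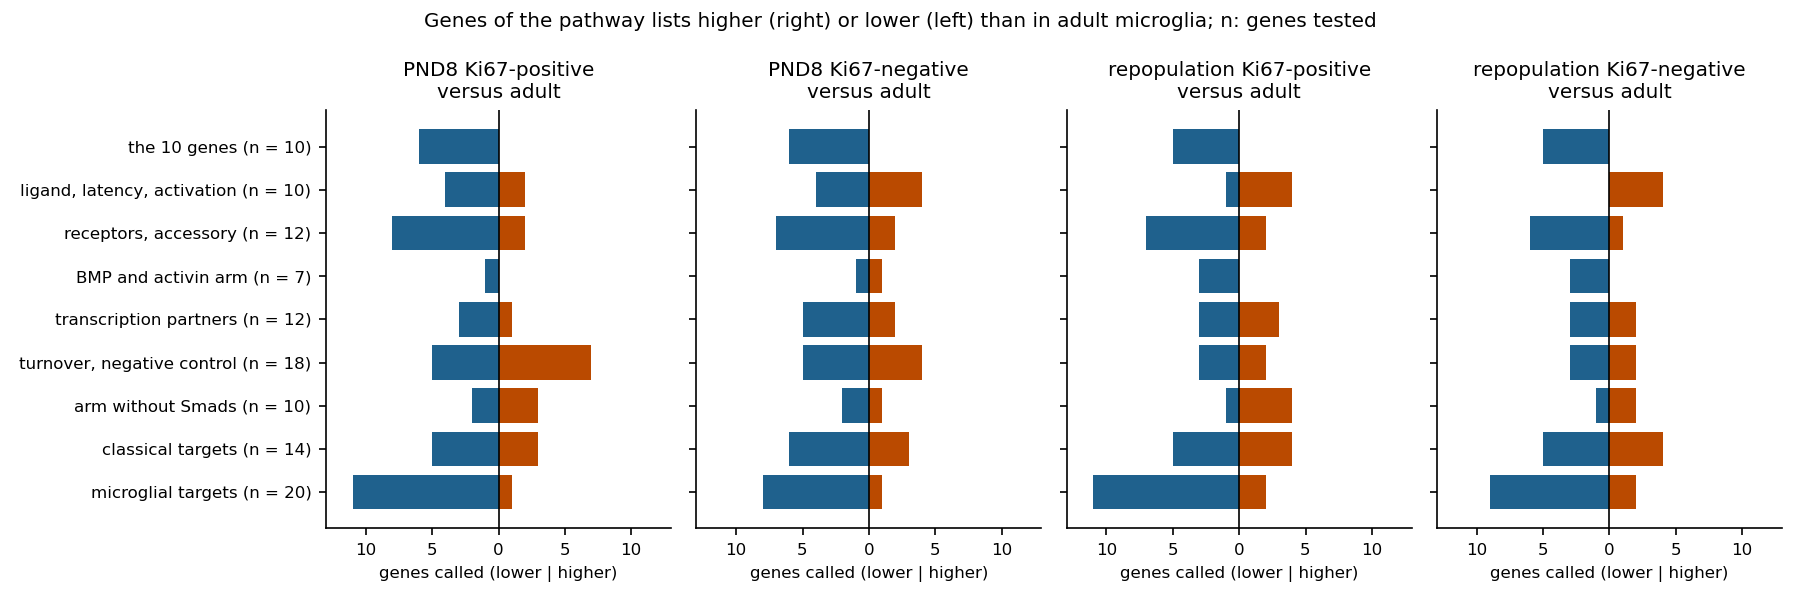
Number of genes lower (left of 0) or higher (right of 0) than in adult microglia at an edgeR adjusted p under 0.05, by gene list (rows, n tested in brackets) and group (panels). Receptors show 8 lower and 2 higher genes of 12 in PND8 Ki67-positive cells, and the microglial targets 11 lower and 1 higher of 20.

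Downstream lists differed, and more of the microglial targets were lower than higher in all 4 comparisons. Of all genes, 24.3%, 21.4%, 21% and 17.6% were lower in the same order, and 25.1%, 25.4%, 23.9% and 21.5% higher. Of 12 transcription partners of Smads, 3, 5, 3 and 3 were lower and 1, 2, 3 and 2 higher. Zfyve9 (SARA), which presents Smads to the receptor, fell in all 4 comparisons, by 1.03 and 0.68 in PND8 Ki67-positive and Ki67-negative cells and by 1.05 in repopulation Ki67-negative cells. Of 18 genes for turnover and negative control, 5, 5, 3 and 3 were lower and 7, 4, 2 and 2 higher, among them Tgif1, a Smad corepressor that fell by 1.15 and 1.40 at PND8, and Dab2, an endocytic adaptor that rose by 2.32 and 2.04 there, from 70.1 and 72.1 CPM in adult cells. Dab2 is also expressed by border macrophages. Of their 7 tested markers, 3 and 6 were higher than adult in PND8 Ki67-positive and Ki67-negative cells, and 0 lower. Without Mrc1, which made up most of the sum, the other 7 of the 8 markers summed to 26.0 to 90.3 CPM at PND8. In adult libraries those 7 summed to 15.4 to 27.7 CPM. The part of such cells in the Dab2 difference was not tested. Of 14 classical targets, which include Smad7 and Skil, 5, 6, 5 and 5 were lower and 3, 3, 4 and 4 higher. The cell cycle inhibitor Cdkn1a (p21) rose from 16.5 and 18.3 CPM to 128 and 138 in PND8 Ki67-positive and 172 and 182 in repopulation Ki67-positive cells. Of 20 genes described as TGF-beta-dependent in microglia, 11, 8, 11 and 9 were lower and 1, 1, 2 and 2 higher, with medians of -0.30, -0.21, -0.34 and -0.21. Examples are Mertk, a phagocytic receptor (-0.92 ± 0.11 in PND8 Ki67-positive cells), and Fcrls (-1.18 ± 0.10 in repopulation Ki67-positive cells), against Gas6, a ligand of Mertk, which rose by 1.18 ± 0.09 in PND8 Ki67-positive cells. Of 7 tested genes of the BMP and activin arm, 1, 1, 3 and 3 were lower and 0, 1, 0 and 0 higher, with Smad1 lower in all 4 comparisons, and of 10 genes of the arm without Smads, 2, 2, 1 and 1 were lower and 3, 1, 4 and 2 higher.

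Between Ki67 fractions at PND8, 1 receptor gene of 12, 1 ligand, latency or activation gene of 10, 2 turnover genes of 18, 2 classical targets of 14 and 2 microglial targets of 20 passed, beside 5.9% of all genes, with Ltbp3 counted in both the ligand and the classical list. Among them Eng (-0.54, adjusted p = 0.00117, edgeR), Ltbp3, which binds latent TGF-beta (-1.01, adjusted p = 0.0249), and the microglial adhesion receptor Adgrg1 (-0.65, adjusted p = 0.00189) were lower in Ki67-positive cells, and the ubiquitin ligase Nedd4l was higher (0.58, adjusted p = 0.0123). In repopulation Gas6 was the 1 listed gene that passed (-0.41, adjusted p = 0.0212). Between repopulation and PND8, 7 ligand, latency and activation genes of 10 were higher in Ki67-positive cells and 0 lower, and 6 were higher and 1 lower in Ki67-negative cells. Of all genes 16.7% were higher and 14.2% lower in the former and 18% and 18.6% in the latter. Of the 14 classical targets, Ki67-positive cells had 8 higher and 3 lower, and Ki67-negative cells 8 higher and 2 lower.

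The genes most like each member were ranked by Pearson's r of log2 CPM over the 10 RNA libraries, which fall into 5 groups and share them for every gene, so the values are a description. Skil was most like Trim36 (r = 0.996), Tgfbr1 most like Itgav (0.991), Smad7 most like Ablim1 (0.991) and Smad3 most like Dnajc28 (0.989). For Tgfbr2 the leading gene was Trim30d (0.981), for Smad2 Slamf1 (0.977) and for Ski Btbd3 (0.975). The members that passed in few comparisons had lower maxima, with Tarbp1 for Nrros (0.960), Bend5 for Smad4 (0.959) and Morn1 for Tgfb1 (0.926). Itgav, which leads for Tgfbr1, is itself on the activation list.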

How the data were processed

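RNA-seq, H3K27ac, H3K4me3 and Rpb2 ChIP-seq and ATAC-seq of sorted mouse microglia were used. The submitters' processing notes name STAR 2.7.0f, Bowtie2 2.3.4.1, HOMER 4.11, DESeq2 and mm10, without roles. Per the file headers, the deposited raw counts and TPM were made with HOMER over exons of 1 transcript per gene, with at most 3 tags per position, and the H3K27ac peaks were called per library against input. The peak signal in the deposited lists is normalized to a fixed number of tags per library, and the peak score is the authors' own; both only rank peaks within a list.

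Counts were tested with edgeR 4.0.16 (quasi-likelihood, TMM, filterByExpr, all 10 libraries in 1 fit, R 4.3.3), with Benjamini-Hochberg adjustment over 12230 genes and a threshold of 0.05. DESeq2 1.42.0, limma 3.58.1 on log2(TPM + 1) and log2(TPM + 0.1), other scalings, no filter, fits with only the compared groups, a replicate block, a header code term and leaving out each library were alternatives. The test was also run on simulated counts with the same spread in every group. The spread between real replicates was unequal, which that simulation does not cover. Its chi-square per degree of freedom was 2.55 in adult and 11.5 in PND8 Ki67-negative libraries. Fold changes are on the log2 scale, with SE. P-values measure the spread between these samples only. H3K27ac was measured as covered length within 20 kb each side of the start site (Python 3.11.15), with windows of 5 and 50 kb and division by each library's covered total as alternatives. The members and the gene lists were chosen with earlier results of these data known. Other genes were named by rule: per list, the 3 genes with the largest change among those past the threshold in each comparison with adult and the 1 with the largest in each Ki67 comparison, and per member up to 3 with the highest r, of which the first is given. The text gives examples of the genes so named, and a withheld item is not reported here.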

Additional observations from a re-analysis of the deposited data

How the results depend on the processing

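None of the calls of single genes changed direction under any alternative run. Over the settings other than leaving out a library, 726 of 770 single-gene results kept their side of the threshold, 16 lost the call and 28 gained one. When libraries were left out in turn, 368 of 400 kept it, 29 lost it and 3 gained one. A count is given here where it moved by more than 1.5 times. The number of members called moved to 1 for PND8 Ki67-positive against Ki67-negative cells with the header code as a term (0 to 1 without single libraries), to 4 for repopulation against PND8 in Ki67-negative cells with only the compared groups, to between 2 and 3 for repopulation Ki67-negative against adult without single libraries, and to between 3 and 5 for repopulation against PND8 in Ki67-positive cells. Of all 12230 genes, 780 were higher and 1082 lower between the PND8 fractions with the header code term. With only the compared groups, 1784 were higher and 1447 lower, of 11920, for repopulation against PND8 in Ki67-negative cells. Within the tolerance of 1.5 times, settings other than leaving out a library gave 6 to 9 members for PND8 Ki67-positive against adult. They gave 5 to 7 for repopulation Ki67-positive and 4 to 6 for repopulation Ki67-negative against adult. Of 11651 to 17073 tested genes, 2642 to 3377, 2292 to 3067 and 1769 to 2596 were lower there, in that order. For repopulation against PND8 in Ki67-positive cells they gave 4 to 8 members, where 1638 to 2331 genes were higher and 1537 to 2222 lower. With library sizes alone, all genes higher and lower in repopulation than PND8 went from 2203 and 2270 to 1829 and 3064 in Ki67-negative cells, and from 2040 and 1738 to 1730 and 2222 in Ki67-positive cells. The header code could not be a term against adult, which has its own code.

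Samples with the same replicate number correlated between -0.0084 and 0.338 in their deviations over 10 pairs of groups. The highest were the Ki67 fractions of PND8 (0.338) and of repopulation (0.263), whose same-numbered libraries share a header code. With 2 pairs and no label that ties a number to an animal or litter, the number was not taken as a pairing. With the replicate block, 0 members were called between the Ki67 fractions of PND8 and of repopulation, and 0 for the interaction. Against adult, 8 were called for PND8 Ki67-positive (Smad4 and Smad2 added) and 6 for PND8 Ki67-negative cells. Repopulation Ki67-positive cells had 7 (Nrros and Skil added) and Ki67-negative cells 5. For repopulation against PND8, 7 and 6 were called in Ki67-negative and Ki67-positive cells. The block also raised the calls among all 12230 genes. Those lower than adult went from 2976 to 3240, 2615 to 2881, 2571 to 2895 and 2157 to 2514, in the order given. Between fractions, higher and lower genes went from 336 and 385 to 527 and 701 at PND8. In repopulation they went from 229 and 106 to 383 and 328. Against PND8 they became 2434 and 2653 in Ki67-negative and 2290 and 2072 in Ki67-positive cells.

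The H3K27ac counts were less stable. Divided by the library total, the members whose lists did not overlap came to 1 between the Ki67 fractions of PND8 and 1 between those of cuprizone. For repopulation against PND8 they came to 2. The shares of all genes higher and lower were, in that order, 14.5% and 10.5%, 10.7% and 7.23%, and 13.2% and 16.1%. With 5 kb each side they came to 4 between the cuprizone fractions (9.73% of all genes higher, 5.42% lower). For PND8 Ki67-negative against adult they came to 3 (22.0%, 4.70%). With 50 kb they came to 1 between the cuprizone fractions (7.14%, 6.00%). Against adult they then came to 3 for PND8 Ki67-positive (42.4%, 1.71%) and 1 for PND8 Ki67-negative (37.3%, 2.62%). For cuprizone Ki67-positive against adult they came to 2 (31.1%, 1.81%). Without single lists, where 1 list against 2 overlaps less by construction, they came to 7 in each case between the PND8 fractions, 5 to 7 between the cuprizone fractions, and, against adult, 6 to 10 for PND8 Ki67-negative, 6 to 8 for cuprizone Ki67-positive, 7 to 8 for cuprizone Ki67-negative and 6 to 8 for repopulation. The cause of these changes was otherwise not tested, and 2 libraries a group limit every comparison.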
